A study of Mus musculus with 12 samples.

Results

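The genes described here are 10 genes of the embryonic 2-cell programme, taken by symbol from the 23336 symbols of a gene count table: the Usp17-like deubiquitinase genes Dub3, Dub1, Dub2a, Dub1a and Usp17l5, the PRAME-like gene Gm12794, and Tmem92, Dux, Tcstv1 and Zfp352. They were chosen by their counts, which were near 0 outside a single group of libraries, so the contrast between that group and the others is described below without a test. RNA was sequenced from B16, an established mouse melanoma line, in 12 libraries that form 4 groups of 3. Adar-null cells (Cas9 with Adar sgRNA 1) with interferon-beta (IFNb), vehicle-treated Adar-null cells, control cells (Cas9 with a non-targeting guide, number 5) with IFNb and vehicle-treated control cells were compared. IFNb was given at 1000 U per mL, the vehicle was phosphate-buffered saline with albumin, and exposure lasted 36 h in all groups. Each genotype is represented by 1 guide and subcloned cells after brief transfection, and nothing in the labels ties replicate libraries to separate cultures. P-values therefore measure only the spread between libraries, possibly a technical one.

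The 2-cell programme is the burst of transcription with which the mouse embryo first switches on its own genome. The double homeobox factor Dux binds and activates many of its genes and the MERVL retroviral elements that serve as promoters for others. In mouse embryonic stem cells a small fraction of cells enters this state, and elsewhere it is held silent by chromatin assembly factor 1, DNA and histone methylation and non-canonical Polycomb complexes. Adar encodes an adenosine deaminase that edits double-stranded RNA, and IFNb is a type I interferon that signals through the IFNAR receptor.

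Of the 10 genes, 9 could be placed on GRCm38 (the build also called mm10). The deubiquitinase genes lie among olfactory receptor genes on chromosome 7: Dub3 (annotated as Usp17le) at chr7:104768049-104777470, Dub1a (Usp17lb) at chr7:104840257-104842603 and Dub2a (Usp17ld) at chr7:103249737-103252505 on the minus strand, and Dub1 (Usp17la) at chr7:104857009-104862667 and Usp17l5 (Usp17lc) at chr7:103415072-103419880 on the plus strand. Gm12794 (Pramel19) lies at chr4:101940407-101943183 on the plus strand. Tmem92 is at chr11:94777217-94782703 and Tcstv1 at chr13:119893388-119894785, both on the minus strand. Zfp352 is at chr4:90218820-90225702 on the plus strand. Dux was counted under its symbol and was not placed.

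The deubiquitinase genes are close copies of each other. Over their longest transcripts, pairs shared between 85.7% (Dub1 and Usp17l5) and 97.8% (Dub2a and Usp17l5) of aligned bases. The likeness extends upstream of the genes, as a stretch of 80 bases shows for the 3 members in which it was read from RefSeq promoters (GRCm38.p6). It ends 22, 7 and 86 bases before the RefSeq start of Dub1, Dub1a and Dub2a, at chr7:104856914-104856993 on the plus strand, chr7:104842591-104842670 on the minus strand and chr7:103252592-103252671 on the minus strand. The sequences are given 5′ to 3′ on the strand of the gene to show how alike the copies are; the capitals mark the TATA-like hexamer, which reads TATAAA in Dub1a and Dub2a.
Dub1: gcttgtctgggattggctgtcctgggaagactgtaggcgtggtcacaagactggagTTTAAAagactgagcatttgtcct
Dub1a: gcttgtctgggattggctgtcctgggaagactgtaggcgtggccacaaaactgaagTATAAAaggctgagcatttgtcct
Dub2a: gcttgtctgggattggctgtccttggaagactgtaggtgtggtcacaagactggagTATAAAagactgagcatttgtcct
Dub1 and Dub2a shared 77 of these 80 bases, Dub1 and Dub1a 75, and Dub1a and Dub2a 74. The stretch was located by its first bases, which these copies share. It was not read in Usp17l5, for which a promoter window was also matched.

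Promoter windows of 250 bases before the start were matched for 6 members: Dub1, Dub1a, Dub2a, Usp17l5, Gm12794 and Zfp352. TATAAA, searched on both strands, was present in the windows of Dub1a, Dub2a and Usp17l5, and in 12.4% of 32851 mouse promoter windows of that length. A match describes these letters in these windows only.

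All 10 genes were counted in IFNb-treated Adar-null cells, and 8 of the 10 in no other library. Counted over all symbols, 4.43% had at least 1 count in that group and none in another, and the 10 genes were selected for this pattern. Their summed counts were 284 in IFNb-treated Adar-null cells (exact Poisson 95% interval 251.9 to 319), 0 in vehicle-treated Adar-null cells, 2 in IFNb-treated control cells and 0 in vehicle-treated control cells. Intervals and floors given here cover counting error only. Against a floor of 3 counts per group, the sum in IFNb-treated Adar-null cells was 96.9-fold above the floor of vehicle-treated Adar-null cells. Folds of this kind compare the summed count over the summed library sizes of a group with that floor, not the mean CPM of its libraries. They leave out the counting error of the summed count, so they are not lower limits. In bulk RNA, fewer cells that express a gene and less RNA per cell cannot be told apart.

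The deubiquitinase genes carried the majority of these reads. Their family was first described as immediate-early genes that cytokines induce in mouse lymphoid cells, and their products remove ubiquitin from proteins. Dub3 had 17, 38 and 16 counts in the IFNb-treated Adar-null libraries, against 0, 0 and 0 in vehicle-treated Adar-null libraries, 0, 1 and 0 in IFNb-treated control libraries and 0, 0 and 0 in vehicle-treated control libraries. The second Adar-null library with IFNb was the highest. This is 3.82 ± 1.67 CPM (normalised counts, each library divided by its TMM-adjusted total; SD, n = 3). Its summed count corresponds to 3.89 CPM, 24.2-fold above the floor of vehicle-treated Adar-null cells.

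Dub1 had 13, 18 and 13 counts in the IFNb-treated Adar-null libraries and none in the other 9 libraries. Its 3 values lay close together, with a mean of 2.41 ± 0.328 CPM (SD, n = 3). Their sum was 15.0-fold above the floor of vehicle-treated Adar-null cells and 15.3-fold above that of IFNb-treated control cells. Dub2a had 10, 15 and 7 counts in the IFNb-treated Adar-null libraries and none elsewhere, 10.9-fold and 11.1-fold above the same floors. Dub1a, the neighbour of Dub1, had 0, 9 and 9 counts there and none elsewhere, so 1 of the 3 libraries overlapped with the silent groups. Usp17l5 had 2, 1 and 2 counts and none elsewhere, at least 1.71-fold and 1.74-fold above the floors.

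Together the 5 deubiquitinase genes had 42, 81 and 47 counts in the IFNb-treated Adar-null libraries, which is 52.5%, 61.4% and 65.3% of the counts of the 10 genes in each library. The division among the copies is uncertain. Of the possible 37-base reads from their transcripts, 59.7% for Dub2a, 52.6% for Usp17l5, 37.3% for Dub3, 24.6% for Dub1 and 24.4% for Dub1a also occur in transcripts of another of the 10 genes, and how such reads were assigned is not given in the sources used here.

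Gm12794, of the PRAME-like family of leucine-rich repeat proteins that is expanded in the mouse and active in early embryos, had 21, 25 and 14 counts in the IFNb-treated Adar-null libraries and none in the other 9. Its mean was 3.31 ± 0.959 CPM (SD, n = 3). Its sum was 20.5-fold above the floor of vehicle-treated Adar-null cells and 20.9-fold above that of IFNb-treated control cells. Per length it was the most abundant of the placed genes, with 41.3 counts per kb of exon over the 3 libraries, followed by Dub3 with 35.7 counts per kb. Of its possible 37-base reads, 51.2% also occur in transcripts of genes outside the 10, so part of its count may belong to other PRAME-like genes.

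Tmem92, a transmembrane protein gene known as a DUX target, had 10, 15 and 7 counts in the IFNb-treated Adar-null libraries and none elsewhere, 10.9-fold above the floor of vehicle-treated Adar-null cells. These are the same counts as those of Dub2a, although the genes lie on different chromosomes and share no 37-base read. Only 3.02% of its 37-base reads occur in another gene, the lowest share among the placed genes.

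Dux itself was sparse. It had 5, 4 and 2 counts in the IFNb-treated Adar-null libraries, against 0, 0 and 0 in vehicle-treated Adar-null libraries, 1, 0 and 0 in IFNb-treated control libraries and 0, 0 and 0 in vehicle-treated control libraries. The groups did not overlap, but the gap to the single control read was 1 count. The mean was 0.621 ± 0.315 CPM (SD, n = 3). The summed count corresponds to 0.602 CPM, 3.75-fold above the floor of vehicle-treated Adar-null cells.

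Tcstv1, named for its variable expression at the 2-cell stage, had 2, 5 and 2 counts in the IFNb-treated Adar-null libraries and none elsewhere. Its sum was 3.07-fold above the floor of vehicle-treated Adar-null cells. Zfp352, a zinc finger gene active in the 2-cell embryo, had 0, 2 and 0 counts there and none elsewhere. A total of 2 counts is under the floor, so Zfp352 was not distinguishable from 0 at this depth in any group.

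**Figure D1:**
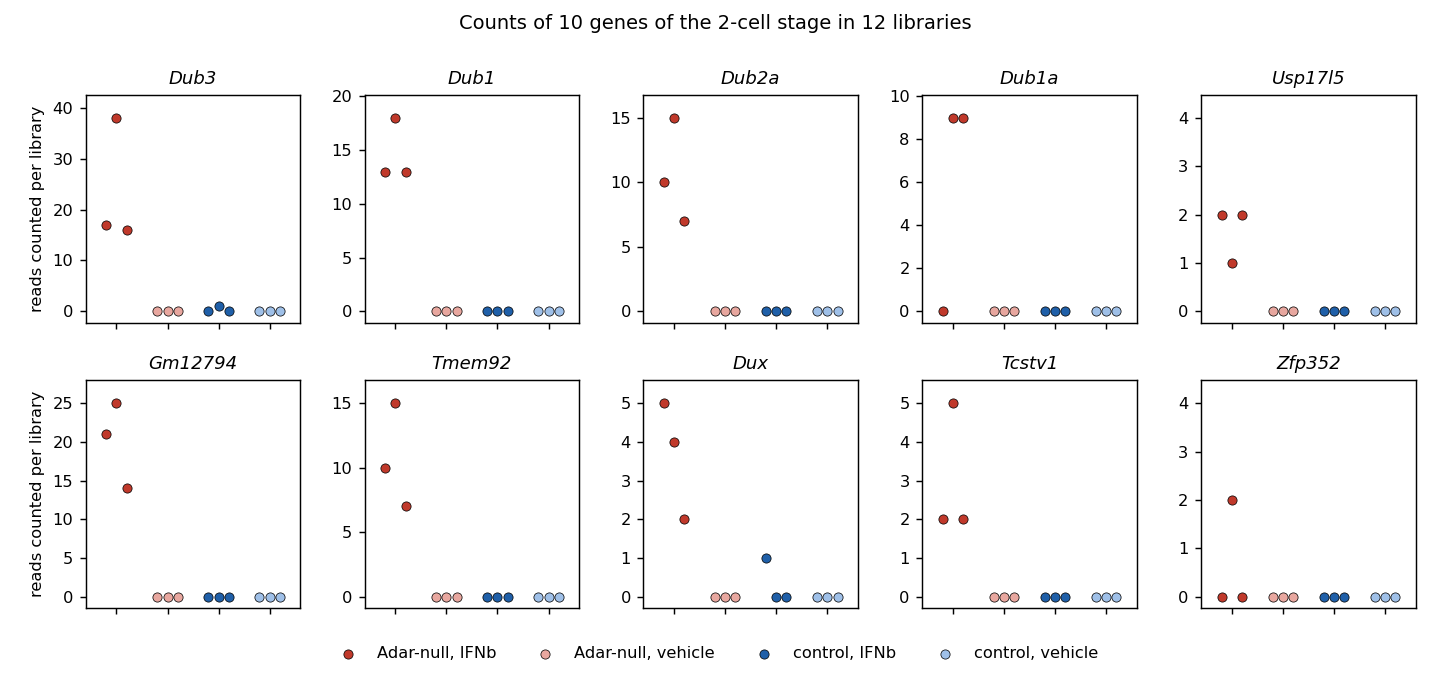
Reads counted per library (vertical axis, its own linear scale in each panel) for the 10 genes; each point is 1 library, and the 4 groups of 3 run left to right as in the legend. All points outside IFNb-treated Adar-null cells lie at 0 except 1 count each for Dub3 and Dux in IFNb-treated control cells.

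The size of the signal differed between the IFNb-treated Adar-null libraries. The 10 genes summed to 80, 132 and 72 counts, or 15.1 CPM (95% interval 12 to 18.8), 19.8 CPM (16.6 to 23.5) and 11.4 CPM (8.90 to 14.3). The second library was the highest, and its interval overlapped that of the first but not that of the third. Counts were found for 8, 10 and 9 of the 10 genes. In the 9 other libraries together, a floor of 3 counts corresponds to 0.0544 CPM.

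Libraries held 5375649 to 7153480 counts, and Rn45s, the ribosomal RNA precursor, took 21.1% to 28.5% of them. Adar averaged 407 ± 21.1 CPM in IFNb-treated Adar-null cells, 59.5 ± 5.25 in vehicle-treated Adar-null cells, 384 ± 7.46 in IFNb-treated control cells and 72.1 ± 2.05 in vehicle-treated control cells (SD, n = 3 each); a count over the whole gene does not test a small Cas9 deletion. All 8 melanocyte markers examined were counted in every group, and their summed level was 15130 to 16150 CPM in IFNb-treated Adar-null cells, against 18440 to 19770 CPM over the other 3 groups. The 8 leukocyte markers summed to at most 0.601 CPM in IFNb-treated Adar-null cells, with 6 of 8 at 0, and to 0.178 to 1.32 CPM in the other groups. The 8 fibroblast and endothelial markers summed to 3.16 to 4.73 CPM in IFNb-treated Adar-null cells, with 1 of 8 at 0, and to 2 to 4.61 CPM in the other groups, with 4 of 8 at 0 in each. The part of these marker levels in the counts of the 10 genes was not tested.

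Other genes of the 2-cell programme were examined in a list of 69 symbols, of which 55 are in the table. The list was drawn up with results of these data known. In IFNb-treated Adar-null cells 30 of the 55 had a count. For 24 of them no other group had a count, which is 43.6% of the list, against 4.43% of all symbols. Restricted to symbols at 0 in the other 9 libraries, 24 of 48 listed genes (50%) were counted in IFNb-treated Adar-null cells, against 1033 of 7299 symbols (14.2%). Among symbols silent elsewhere, the share counted in the group in question was 3.06% for vehicle-treated Adar-null cells, 3.29% for IFNb-treated control cells and 2.41% for vehicle-treated control cells. Of the 55 listed genes, those counted in 1 group alone numbered 0 for vehicle-treated Adar-null cells, 1 for IFNb-treated control cells and 0 for vehicle-treated control cells, where 0.848%, 0.913% and 0.664% of all symbols were counted in that group alone.

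These genes had fewer reads than the 10. Leaving out the 4 that are expressed in other groups too (Zfp54, Arg2, Ddit4l and Sp110), the other 51 summed to 43, 68 and 36 counts in the IFNb-treated Adar-null libraries. Their sums over 3 libraries were 147 in IFNb-treated Adar-null cells, 2 in vehicle-treated Adar-null cells, 3 in IFNb-treated control cells and 4 in vehicle-treated control cells. Of the 51, 26 had a count in IFNb-treated Adar-null cells and 3 in another group. The second library was again the highest.

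Among them were Gm13119, a PRAME-like gene, with 13, 6 and 3 counts, Gm2022 with 3, 11 and 5 counts, Gm8300 with 2, 11 and 4 counts, and BC080695 with 3, 6 and 7 counts in the IFNb-treated Adar-null libraries. A cluster of 5 related symbols on chromosome 12 that includes Gm2022 summed to 10, 30 and 14 counts there and 0 in each other group. Zscan4 genes, the best known markers of the 2-cell-like state and guardians of telomere length in mouse embryonic stem cells, were sparse. Their 6 symbols summed to 10 counts in IFNb-treated Adar-null cells, 0 in vehicle-treated Adar-null cells, 0 in IFNb-treated control cells and 1 in vehicle-treated control cells. The Obox homeobox genes summed to 6 counts in IFNb-treated Adar-null cells and 0 in each other group. The Trim43 genes did not show the pattern, with 2 counts in IFNb-treated Adar-null cells, 2 in vehicle-treated Adar-null cells, 3 in IFNb-treated control cells and 3 in vehicle-treated control cells.

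**Figure D2:**
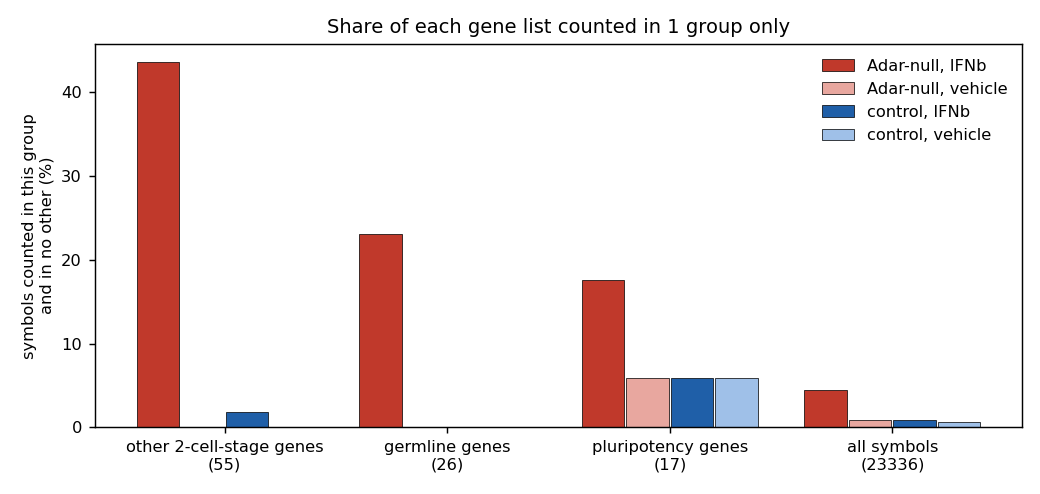
Share of each gene list (percent of its symbols in the table, linear axis) with at least 1 count in a group and none in the other 3 groups; bars are the 4 groups, and numbers in brackets give the symbols in the table. For IFNb-treated Adar-null cells the share is 43.6% of the other 2-cell-stage genes, 23.1% of germline genes, 17.6% of pluripotency genes and 4.43% of all symbols. The gene lists were drawn up with results of these data known.

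Lists of germline and of pluripotency genes were set beside it for scale. Of 26 germline genes 6 (23.1%) were counted in IFNb-treated Adar-null cells alone, and of 17 pluripotency genes 3 (17.6%). Among symbols at 0 in the other 9 libraries, these are 40% and 27.3%, against 50% for the other 2-cell-stage genes and 14.2% for all symbols. Of the 17 pluripotency genes 8 were at 0 in every library. Klf4, a Krüppel-like factor of stem cells and epithelia, made up most of the list's level and was higher in IFNb-treated Adar-null cells (16.6 ± 1.85 CPM) than in IFNb-treated control cells (3.34 ± 0.614 CPM; SD, n = 3 each), with a log2 fold change of 2.29 ± 0.19. IFNb against vehicle gave a log2 fold change of 0.77 ± 0.15 for Klf4 in Adar-null cells and of -1.48 ± 0.22 in control cells, so it rose in Adar-null cells and fell in control cells. Ddx4, the germ cell RNA helicase Vasa, averaged 3.39 ± 0.742 CPM in IFNb-treated Adar-null cells and 0.891 ± 0.372 CPM in IFNb-treated control cells (log2 fold change 1.89 ± 0.41). It passed the expression filter of the fit through the former group, and its highest value in a control library with IFNb was 1.14 CPM. Only 3 of the 26 germline genes were tested, and of these 1 was higher and 1 lower between genotypes under IFNb.

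The genes that surround the 10 in the genome were nearly silent. Of the 14 nearest counted-table neighbours that are not members, 10 were at 0 in all 12 libraries, among them the olfactory receptor genes Olfr594, Olfr596, Olfr603, Olfr605, Olfr663 and Olfr665 next to the deubiquitinases. The other 4 had counts in IFNb-treated Adar-null cells and in no other group, 7 counts in total. Among all symbols silent in the other groups, 14.2% were counted in IFNb-treated Adar-null cells. Gm11545 and Gm11544, on either side of Tmem92, had 3 and 2 counts. B020004J07Rik, on the lower side of Gm12794, and B020031M17Rik, on the higher side of Tcstv1, had 1 count each. B020004J07Rik is also on the list of other 2-cell-stage genes above.

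The pattern of the 10 genes was then searched for in the whole table, as at most 3 counts over the 9 libraries outside IFNb-treated Adar-null cells and at least 3 counts in each library of that group. It was met by 55 symbols, or 0.236%, and without the first of those libraries by 89. Of the 10 genes, Dub1, Dub2a, Dub3, Gm12794 and Tmem92 met it, and so did Gm13119, BC080695 and Gm2022 of the other 2-cell-stage genes. Only 3 of the 10 (Dub1, Dub3 and Gm12794) passed the expression filter of the fit across all genes, through the group in which they are high.

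Outside the 10 genes, the 12 symbols with the pattern and the most counts are given here for comparison. Gbp10, an interferon-inducible GTPase, had 31, 43 and 40 counts in the IFNb-treated Adar-null libraries, and Hist1h2aa, a histone H2A gene of testis and oocytes, had 29, 43 and 30. The cytokine genes Ifnb1, with 30, 33 and 34 counts, and Il6, with 20, 31 and 30, followed. Ifnb1 and Il6 were similar in the 3 libraries, whereas Gabrr1, a GABA receptor subunit, with 13, 32 and 12 counts, Fam3b, a secreted cytokine-like protein, with 8, 29 and 7, and Gpa33, an intestinal surface antigen, with 11, 25 and 5, were highest in the second library, as Dub3 was. The other 5 of these 12 were Otog (16, 24 and 13 counts), Chrm1 (14, 21 and 15), Dtx1 (12, 19 and 15), Elmo1 (14, 13 and 9) and Scrt1 (12, 9 and 11).

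**Figure D3:**
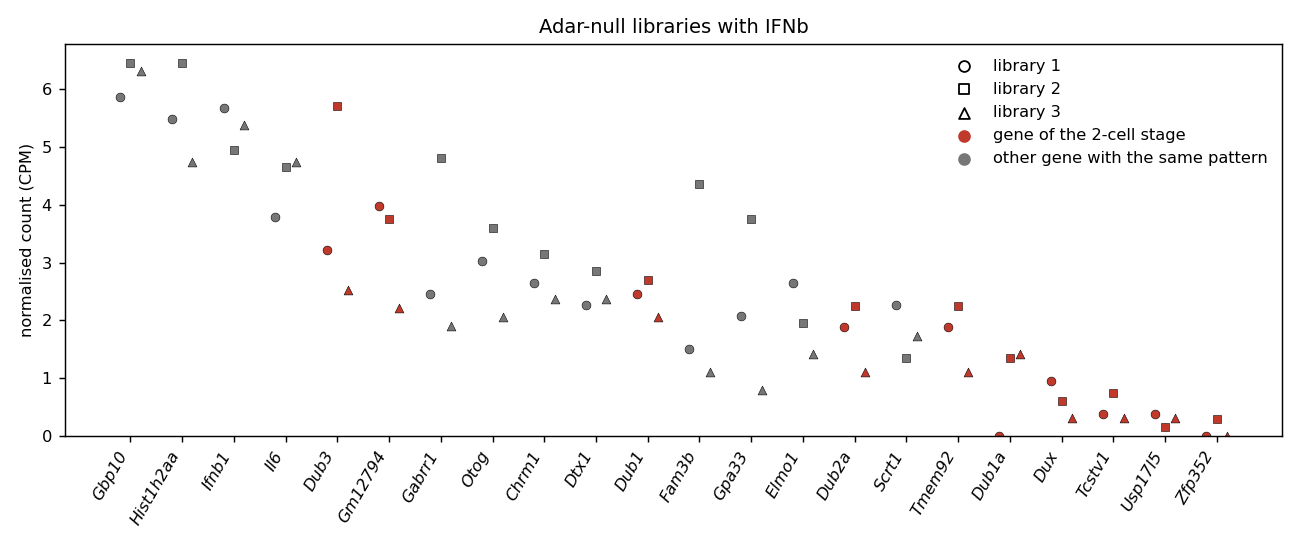
Normalised counts (CPM, linear axis) in the 3 IFNb-treated Adar-null libraries for the 10 genes (red) and the 12 most counted other symbols with the pattern (grey), ordered by total; marker shape gives the library. Dub3 and Gm12794 lie among the highest of these symbols, and Dux, Tcstv1, Usp17l5 and Zfp352 at the low end.

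Genes that act upstream of the programme were followed in the fit across 11561 genes (edgeR quasi-likelihood test, adjusted p under 0.05 after Benjamini-Hochberg adjustment). None of them is one of the 10 genes. They were measured in the same libraries, and the lists were drawn up with results of these data known. Their values are therefore not independent of the choice of the 10 genes. Among 31 tested genes reported to repress the 2-cell state, 14 were lower and 10 higher in IFNb-treated Adar-null cells than in IFNb-treated control cells. Among all genes, 36.2% were lower and 36.4% higher. The median log2 fold change of the list was -0.17, and that of all genes tested 0.02. At least 2-fold changes numbered 6 lower and 1 higher. The share of all genes with changes of that size was not computed, so these counts have no background.

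The strongest decreases were in RNA of Uhrf1, Dnmt1 and both larger subunits of chromatin assembly factor 1. That factor places histones on newly copied DNA. Protein levels, chromatin assembly and DNA methylation were not measured here. Whether these RNA levels bear on the genes described here was not tested. Chaf1a had 18.9, 17.1 and 16.9 CPM in IFNb-treated Adar-null libraries, 135, 138.8 and 126.9 in vehicle-treated Adar-null libraries, 154.7, 149.1 and 151.4 in IFNb-treated control libraries and 119.2, 120.4 and 121.2 in vehicle-treated control libraries. All values of the first group lay far below every other value, and the log2 fold change against IFNb-treated control cells was -3.11 ± 0.07 (edgeR adjusted p = 4.53e-69). Chaf1b averaged 3.81 ± 0.601 CPM in IFNb-treated Adar-null cells and 55.7 ± 4.29 CPM in IFNb-treated control cells (log2 fold change -3.87 ± 0.13).

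Uhrf1, which recruits the maintenance methyltransferase to hemimethylated DNA, had 13.4, 17.4 and 16.0 CPM in IFNb-treated Adar-null libraries, against 285.5, 276.8 and 277.2 CPM in IFNb-treated control libraries (log2 fold change -4.15 ± 0.07). Dnmt1, that methyltransferase, averaged 59.3 ± 3.78 CPM in IFNb-treated Adar-null cells, 342.9 ± 2.49 in vehicle-treated Adar-null cells, 326 ± 7.53 in IFNb-treated control cells and 317.1 ± 3.98 in vehicle-treated control cells (SD, n = 3 each). Its log2 fold change was -2.46 ± 0.05 between the genotypes under IFNb. L3mbtl2, a subunit of a non-canonical Polycomb complex, fell by 1.59 ± 0.06 on the log2 scale, and Cbx3, the heterochromatin protein HP1-gamma, by 1.03 ± 0.23.

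The other repressors went in both directions or did not pass the test. Daxx, a histone H3.3 chaperone, was higher in IFNb-treated Adar-null cells (223.5 ± 4.35 CPM) than in IFNb-treated control cells (92.8 ± 2.0 CPM), at a log2 fold change of 1.27 ± 0.05. Mga, which anchors the same Polycomb complex as L3mbtl2 to DNA, rose by 0.43 ± 0.05, Rybp by 0.45 ± 0.11, Zfp809, a zinc finger protein that targets retroviral elements, by 0.37 ± 0.11, and Morc3 by 0.36 ± 0.08. Pcgf6 had a log2 fold change of 0.29 ± 0.12 (adjusted p = 0.0303), a call that ended without Adar-null library 1 or 3 or any single control library with IFNb (adjusted p = 0.0505 to 0.115), with DESeq2 (0.0677) and with no filter on low counts (0.0502). Trim28, the corepressor of zinc finger proteins that silence retroviral elements, fell by 0.17 (edgeR adjusted p = 0.000165). The other decreases that passed were Smchd1 (-0.784), Myc (-0.765), Hdac2 (-0.635), Hdac1 (-0.631), Ehmt1 (-0.28), Rif1 (-0.279) and Ehmt2 (-0.242). In all, 14 of the list were lower and 10 higher, as given above. Setdb1 and Kdm1a, histone-modifying enzymes, did not pass the test (adjusted p = 0.223 and 0.346).

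In control cells, IFNb gave another picture for the same 31 genes against vehicle: 12 were higher and 2 lower, where 26.5% of all genes were higher and 26.5% lower. Chaf1a, Chaf1b and Uhrf1 were higher, with log2 fold changes of 0.33 ± 0.05, 0.44 ± 0.08 and 0.45 ± 0.05, and Dnmt1 did not pass the test (0.04 ± 0.04, adjusted p = 0.469). In Adar-null cells, IFNb against vehicle left 14 lower and 9 higher, where 35.7% of all genes were lower and 36.6% higher. These comparisons share libraries with the one between genotypes under IFNb. Under vehicle, 3 of the 31 were higher and 1 lower in Adar-null than in control cells, where 2.47% of all genes were higher and 4.05% lower. The higher ones numbered 5 without IFNb-treated Adar-null library 1 or 3 and 1 without vehicle-treated Adar-null library 1. The lower one was lost without vehicle-treated Adar-null library 1 or 2 or vehicle-treated control library 1 or 2.

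**Figure D4:**
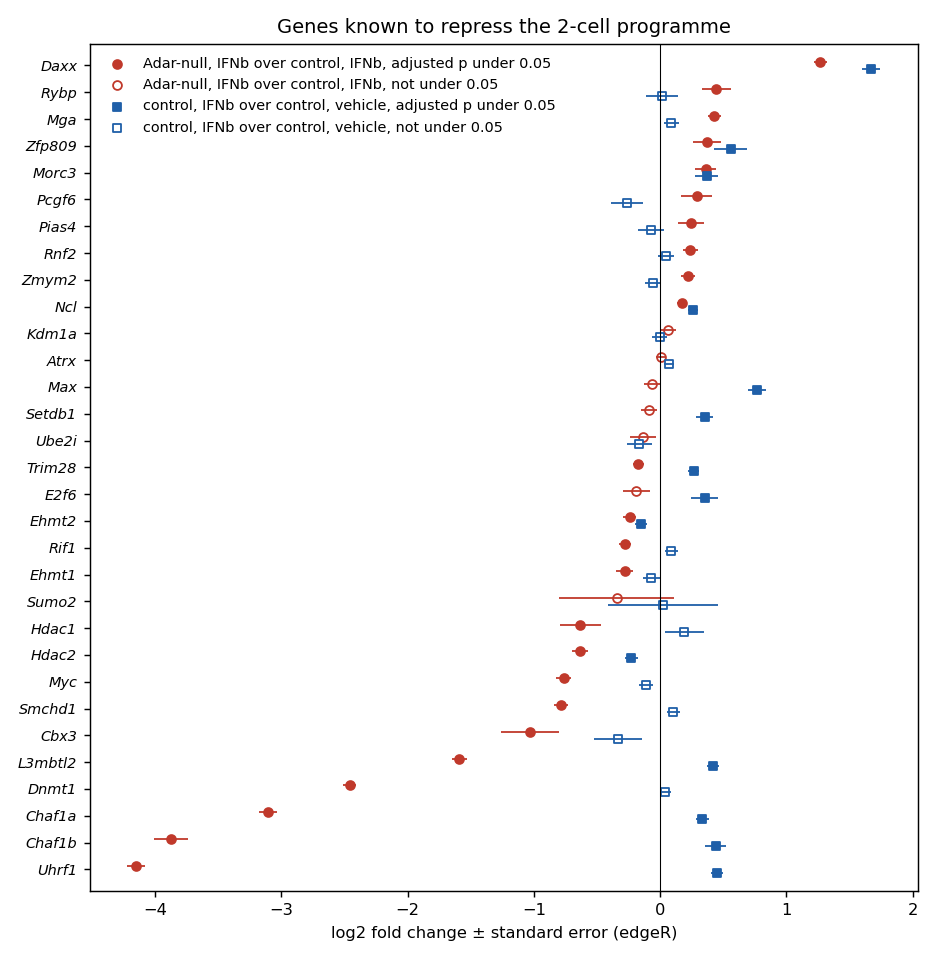
Log2 fold change with its standard error (horizontal axis) for 31 genes reported to repress the 2-cell programme: Adar-null over control cells, both with IFNb (red circles), and IFNb over vehicle in control cells (blue squares); filled symbols have an adjusted p under 0.05. Both comparisons use the IFNb-treated control libraries. Uhrf1, Chaf1b, Chaf1a and Dnmt1 lie between -4.15 and -2.46 in the first comparison and between 0.04 and 0.45 in the second.

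Of 5 genes in the table that are known to activate Dux or MERVL, 3 were expressed enough to be tested. Between the genotypes under IFNb 2 were higher and 1 lower, where 36.4% of all genes were higher and 36.2% lower. Dppa2, which with Dppa4 switches on Dux in mouse embryonic stem cells, was at 0 in every library. Trp53, which encodes p53, an activator of Dux after DNA damage in mouse embryonic stem cells, averaged 134.6 ± 5.53 CPM in IFNb-treated Adar-null cells, 68.9 ± 1.80 in vehicle-treated Adar-null cells, 76.3 ± 1.26 in IFNb-treated control cells and 61.6 ± 1.52 in vehicle-treated control cells (SD, n = 3 each). IFNb-treated Adar-null cells lay above all other groups. The log2 fold change was 0.82 ± 0.06 against IFNb-treated control cells (edgeR adjusted p = 3.41e-26). These are RNA levels, and p53 activity was not measured here. A link between Trp53 RNA and the genes described here was not tested. Smarca5, a chromatin remodeller, fell by 0.27 ± 0.07. Gata2 had a log2 fold change of 0.61 ± 0.24 (adjusted p = 0.0183), a call that ended without Adar-null library 2 or 3 with IFNb, without the first control library with IFNb, and with DESeq2 (adjusted p = 0.0508 to 0.0855).

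Only 3 of the other 2-cell-stage genes were expressed enough to be tested, and of these 2 were higher in IFNb-treated Adar-null cells than in IFNb-treated control cells. Among all genes 36.4% were higher, and 3 genes are too few to set against that share. Sp110, a nuclear body gene that interferon also induces, had 8.89, 7.06 and 8.53 CPM in IFNb-treated Adar-null libraries, against 1.25, 1.43 and 2.79 CPM in IFNb-treated control libraries (log2 fold change 2.13 ± 0.28). Sp110 passed the expression filter through IFNb-treated Adar-null cells. Ddit4l, an inhibitor of mTOR signalling, averaged 15.3 ± 1.41 CPM in IFNb-treated Adar-null cells, 1.24 ± 0.263 in vehicle-treated Adar-null cells, 6.46 ± 0.487 in IFNb-treated control cells and 2.08 ± 0.096 in vehicle-treated control cells (log2 fold change 1.23 ± 0.17 between the genotypes under IFNb). Both were also higher with IFNb than with vehicle in control cells, where the 10 genes had 2 counts with IFNb and 0 with vehicle.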

How the data were processed

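Directional libraries were prepared from B16 RNA after ribosomal RNA depletion and read from both ends over 37 bases, per the labels' protocols. The submitters' processing notes name HTSeq 0.6.1p1, Bowtie2 2.2.4, Trimmomatic 0.33, bcl2fastq 2.19.1, DESeq2 and build mm10. Their settings, the annotation and the strand setting were not given in the sources used here. Raw counts per gene symbol were deposited, without normalisation by the authors; 17070 of 23336 symbols had a count.

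From these counts, filterByExpr by group left 11561 genes. One edgeR 4.0.16 fit (R 4.3.3; TMM scaling, robust glmQLFit, glmQLFTest) covered all 12 libraries with a term per group, with Benjamini-Hochberg adjustment per comparison at 0.05; the procedure was tested on simulated data. Standard errors are the log2 fold change over the square root of its F statistic. Values after ± for CPM are standard deviations. Floors are 3 counts per group, and intervals are exact Poisson intervals at 95%. The members of the gene set and all lists were chosen with earlier results of these data known. Named genes are the 10 genes and Adar; from each list, up to 6 called genes per direction with the largest change between genotypes under IFNb; other 2-cell-stage genes with at least 3 counts in each Adar-null library with IFNb; the 12 most counted symbols with the pattern; and the nearest counted neighbours. Others were named after their values were seen. Symbols were placed through GENCODE M21 and RefSeq names (23061 of 23336). Copies were compared by local alignment and by shared 37-base words of GENCODE transcripts. Alternatives were other scalings, no filter, DESeq2 1.42.0, other pattern limits, a replicate block and leaving out each library.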

Additional observations from a re-analysis of the deposited data

Results flagged for a closer look

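For 16 of the genes named by rule from the lists, the response to IFNb differed between Adar-null and control cells by the interaction test of the edgeR fit. The difference is the Adar-null response minus the control response on the log2 scale, called at an adjusted p under 0.05. Of all tested genes, 28.6% passed as higher and 30.7% as lower. The 16 were named because they were called between genotypes under IFNb. That comparison shares libraries with the interaction test, so 16 is not to be read against these shares. Over the whole list of 31 tested repressors of the 2-cell state, 6 passed as higher and 15 as lower. Among the repressors named by rule the difference was -4.33 for Uhrf1, -3.88 for Chaf1b, -3.26 for Chaf1a, -2.57 for Dnmt1, -1.60 for L3mbtl2 and -0.97 for Cbx3. In the other direction it was 1.31 for Daxx, 0.48 for Zfp809, 0.40 for Mga and 0.30 for Morc3. The other 2 repressors that passed as higher were Zmym2 (0.42) and Rnf2 (0.31), and the other 9 that passed as lower ranged from -0.85 for Myc to -0.23 for Rif1. The call for Zfp809 ended with DESeq2 (adjusted p = 0.057) and without Adar-null library 2 with IFNb, control library 3 with IFNb or control library 1 with vehicle (0.0505 to 0.19). That for Morc3 ended with DESeq2 (0.093), with library size alone as the scaling (0.052) and without Adar-null library 1 or 3 with IFNb, Adar-null library 2 with vehicle, control library 2 or 3 with IFNb, or control library 1 or 3 with vehicle (0.0597 to 0.248). Among the activators it was 0.66 for Trp53 and -0.28 for Smarca5. It was 1.98 for Ddit4l of the other 2-cell-stage genes, 2.26 for Klf4 of the pluripotency list, and 3.20 for Ddx4 and -0.31 for Fkbp6 of the germline list. Ddx4 passed the expression filter through the group in which it is high.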

How the results depend on the processing

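No called value changed sign under the alternatives run. With RLE scaling or without Rn45s, 5 repressors in place of 3 were higher in Adar-null than control cells under vehicle, and with library size alone 5 in place of 2 were lower with IFNb in control cells. Without Rn45s the summed level of the 10 genes in IFNb-treated Adar-null cells was 20.3 CPM in place of 15.4, and 2 pluripotency genes in place of 1 were higher between genotypes under IFNb. With no filter on low counts, 11 other 2-cell-stage genes, 2 pluripotency and 4 germline genes were higher between genotypes under IFNb, and 12 other 2-cell-stage genes were higher with IFNb in Adar-null cells. With DESeq2, 109 genes were higher and 215 lower between genotypes under vehicle, in place of 285 and 468, 0 repressors were lower there (edgeR 1), and 1 activator was higher under IFNb. The pattern was met by 26 symbols with 0 counts elsewhere, 129 with at most 10 counts elsewhere and 11 with at least 10 counts in each library of the group.

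Leaving out 1 library at a time, genes called between genotypes under vehicle ranged from 88 to 336 higher and from 220 to 477 lower (both lowest without control library 2 with vehicle), with 1 to 5 repressors higher and 0 to 1 lower. Between genotypes under IFNb, 1 to 2 activators and 1 to 2 pluripotency genes were higher and 1 to 2 germline genes lower. The pattern was met by 55 to 89 symbols, and the summed level of the 10 genes ranged from 13.2 to 17.5 CPM. Libraries with the same number in different groups did not deviate together (correlations of -0.10 to 0.062), so the numbers do not pair them; with a replicate block, 14 repressors were lower and 10 higher in Adar-null than control cells under IFNb, as without it, 2 in place of 3 were higher under vehicle, and none of 84 values of named genes changed its side of the threshold. At 2 to 11 counts per group, Usp17l5, Zfp352, Tcstv1 and Dux were limited by depth.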
